A study of Mus musculus with 2 samples.

Results

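The genes described are imprinted genes in cells of the embryonic mouse ventral forebrain. They were chosen by name from a list of 10 (H19, Igf2, Meg3, Rian, Dlk1, Peg3, Ndn, Snrpn, Grb10 and Impact), and 9 of them were found among the 18088 genes of the deposited matrix. Igf2 is not analysed here. The material was the medial ganglionic eminence (MGE) of CD-1 mouse embryos at E11.5, from which cells were dissociated and profiled by droplet single-cell RNA sequencing in 1 pool labelled with 6 sample barcodes. The embryos carried a reporter of the enhancer hs192 or hs799. Of the barcodes, 4 marked cells gated for GFP (2 for each enhancer) and 2 marked cells with no gate (1 for each). No map from cells to these barcodes was used, so the pool is 1 sample, every value is a single value per class of cells, and the gate can set the share of any class. No test between classes was possible. The standard deviations (SD) given describe the spread of cells within the pool and do not measure the error of a class level. A difference said to be within the SD concerns the overlap of cells and does not show that class levels are equal.

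Imprinted genes are transcribed mainly from the maternal or from the paternal copy, as set by methylation marks laid down in the germ line. Many of them lie in clusters with shared control regions, and many act in growth and in the developing brain, where several are much more strongly expressed in neurons than in dividing cells. Ndn and Snrpn belong to the paternally expressed region linked to Prader-Willi syndrome. Dlk1 is the paternally expressed gene, and Meg3 and Rian are maternally expressed noncoding genes, of 1 domain. H19 is a maternally expressed noncoding gene next to Igf2. The values do not separate the parental copies.

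Promoter windows of 4 members are shown, because Ndn and Meg3 were higher and Grb10 lower in neurons, and Rian lies beside Meg3 in the same domain. Each is the RefSeq promoter window of GRCm38.p6, 250 bases before to 50 after a start, 5′ to 3′ on the strand of the gene, with CpG dinucleotides in capitals. These RefSeq starts differ from the ends of the GENCODE gene spans given further on, so that the Ndn and Grb10 windows lie inside those spans. The Ndn window is chr7:62348027-62348326 on the plus strand.
Ndn: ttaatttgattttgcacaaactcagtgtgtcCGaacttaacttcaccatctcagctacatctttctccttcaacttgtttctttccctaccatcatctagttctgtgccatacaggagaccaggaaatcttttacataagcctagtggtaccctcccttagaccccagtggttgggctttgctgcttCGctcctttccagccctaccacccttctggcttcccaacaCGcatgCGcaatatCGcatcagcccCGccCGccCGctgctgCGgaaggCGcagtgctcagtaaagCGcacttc
The Meg3 window is chr12:109540746-109541045 on the plus strand.
Meg3: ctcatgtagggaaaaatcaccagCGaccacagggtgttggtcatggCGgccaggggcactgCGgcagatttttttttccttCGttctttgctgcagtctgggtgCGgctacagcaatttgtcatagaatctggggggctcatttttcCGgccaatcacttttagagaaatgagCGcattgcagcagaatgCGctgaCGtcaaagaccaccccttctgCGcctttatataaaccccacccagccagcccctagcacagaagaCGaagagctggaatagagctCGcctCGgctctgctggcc
The Rian window is chr12:109603695-109603994 on the plus strand.
Rian: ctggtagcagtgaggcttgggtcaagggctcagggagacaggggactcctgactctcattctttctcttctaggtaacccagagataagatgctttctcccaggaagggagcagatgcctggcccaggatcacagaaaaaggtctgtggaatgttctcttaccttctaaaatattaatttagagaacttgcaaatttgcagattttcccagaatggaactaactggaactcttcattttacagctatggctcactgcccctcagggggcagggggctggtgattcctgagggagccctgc
The Grb10 window is chr11:12037371-12037670 on the minus strand, the more upstream of its 2 windows in the table.
Grb10: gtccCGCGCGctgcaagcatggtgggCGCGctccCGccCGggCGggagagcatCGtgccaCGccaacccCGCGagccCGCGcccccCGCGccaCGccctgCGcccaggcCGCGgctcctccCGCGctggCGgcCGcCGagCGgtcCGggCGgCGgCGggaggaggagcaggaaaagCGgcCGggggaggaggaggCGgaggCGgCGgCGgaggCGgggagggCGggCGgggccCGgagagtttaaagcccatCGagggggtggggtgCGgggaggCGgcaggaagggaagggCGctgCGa
These windows differ widely in CpG content. Grb10 had 45 CpGs, a number reached by 1.93% of the 32851 windows of that length, whose median was 7. Meg3 had 13 and Ndn had 11, while Rian had 0, like 5.43% of all windows. The hexamer TGCCGC, the sequence bound by the imprint-protecting factor ZFP57, was searched on both strands and itself contains a CpG. It was found in the Meg3 and Grb10 windows shown and in 4 of the 16 windows of the 8 members in the table (Igf2 included), against 11.6% of all windows.

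The matrix held 4001 cells with 2471 to 5486 genes each (median 3989). Its values were whole numbers that summed to 10475 to 14196 per cell, and they are a depth-adjusted score made by the authors, not raw counts, so the sequencing depth of a cell is unknown. Of the cells, 6 were called as doublets and removed. The remaining 3995 fell into 17 clusters, formed without the imprinted genes. By their markers, 8 clusters with 2019 cells were neuron-like, 4 with 653 cells were like progenitors of the subventricular zone (SVZ), and 4 with 1086 cells were like progenitors of the ventricular zone (VZ). Cluster 9, with 237 cells led by Arl4d and Lhx8, met no marker rule and stayed unnamed. Levels are given per 10000, as the sum of the values of a gene over the cells of a class divided by the sum over all genes, and are compared between classes and not between genes. Tubb3, the neuronal tubulin, was at 32.7 in neuron-like, 14.3 in SVZ progenitor-like and 2.06 in VZ progenitor-like cells. Hes5, the Notch effector of radial progenitors, was at 0.30, 3.55 and 12.2 in the same order. The unnamed cluster 9 lay near the neuron-like class in both, with Tubb3 at 29.8 and Hes5 at 0.31, and its Lhx8 level was 10.8.

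Ndn, Meg3, Snrpn and Rian were at least 2-fold higher in neuron-like than in VZ progenitor-like cells, and Grb10 and H19 were at least 2-fold lower. Peg3, Dlk1 and Impact lay between these bounds. Among all 14838 genes with at least 30 summed values in both classes together, 17.1% were at least 2-fold higher and 23.8% at least 2-fold lower. The 9 members had a median log2 ratio of 0.83, against -0.14 over all genes tested. Among the 1880 genes at a level of 1 or more over all cells, 18.6% were higher and 12.2% lower by this rule. With 4 higher and 2 lower of 9 there is little to read from the counts alone, and the account goes gene by gene.

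**Figure D1:**
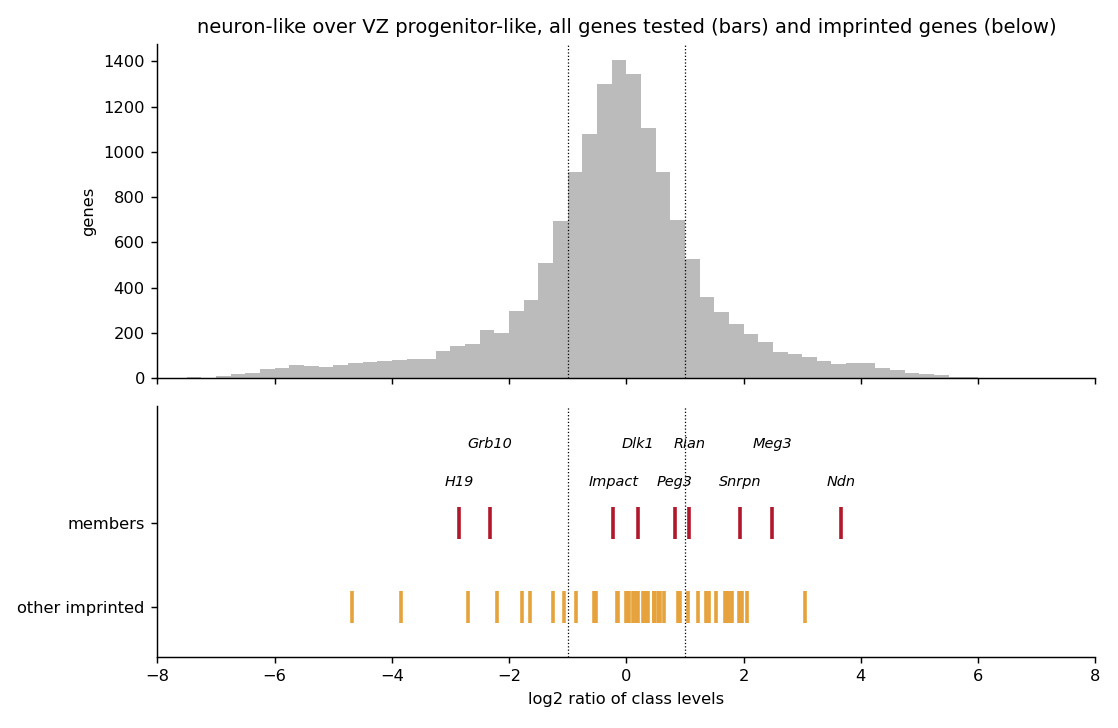
Upper panel, number of genes (vertical axis) by log2 ratio of class levels, neuron-like over VZ progenitor-like (horizontal axis), for the 14838 genes tested. Lower panel, the same ratio for the 9 members and for the other imprinted genes, 1 tick per gene, with dotted lines at 2-fold. Ndn lies farthest to the right of the members at 3.66 and H19 farthest to the left at -2.85.

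Ndn encodes necdin, a protein of the MAGE family that favours cell cycle exit and survival of neurons. It lies at chr7:62346569-62350262 on the plus strand (GRCm38, GENCODE), and an antisense gene, Gm32061, overlaps it. In neuron-like cells its level was 11.9 ± 8.77 (SD), and the middle 90% of cells lay between 1.5 and 29.0. In SVZ progenitor-like cells it was 1.51 ± 1.79, with 95% of cells at or under 5.08, and in VZ progenitor-like cells 0.94 ± 1.27, with 95% at or under 3.50. Neuron-like cells thus stood 12.6-fold over VZ progenitor-like cells (log2 ratio 3.66), although the lowest neuron-like cells overlapped with both progenitor classes. The difference between the progenitor classes was smaller than the spread of cells within either. The log2 ratio of SVZ over VZ progenitor-like cells was 0.68 and lay between 0.32 and 2.25 over the alternatives in processing. Ndn was detected in 98.2% of neuron-like cells (95% interval 97.5% to 98.7%), 70.9% of SVZ progenitor-like cells (67.3% to 74.4%) and 57.5% of VZ progenitor-like cells (54.5% to 60.4%).

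Snrpn encodes SmN, a neuronal protein of the splicing machinery, from chr7:59982495-60140219 on the minus strand. Its level was 3.69 ± 2.03 in neuron-like, 1.5 ± 1.36 in SVZ progenitor-like and 0.96 ± 1.02 in VZ progenitor-like cells. The neuron-like level was 3.86-fold that of VZ progenitor-like cells (log2 ratio 1.95), and the middle 90% of the classes overlapped. Snurf, which shares its transcript, and Gm38393 lie on the same strand within the gene, so their reads cannot be told apart from those of Snrpn here.

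Peg3 encodes a zinc finger protein with roles in growth and maternal behaviour and lies at chr7:6703892-6730431 on the minus strand. Its level was 5.32 ± 5.82 in neuron-like, 4.18 ± 5.68 in SVZ progenitor-like and 3.0 ± 3.52 in VZ progenitor-like cells. These 3 levels differed by less than the SD in any class, and the log2 ratio of neuron-like over VZ progenitor-like cells was 0.83. Neuron-like cells varied widely, with a median of 3.46 and 95% of cells at or under 17.1.

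The Dlk1 to Rian domain on chromosome 12 gave 3 different patterns. Meg3, a long noncoding RNA at chr12:109541001-109571726 on the plus strand, was at 21.2 ± 16.4 in neuron-like, 11.6 ± 12.2 in SVZ progenitor-like and 3.77 ± 4.40 in VZ progenitor-like cells. The SVZ progenitor-like level thus lay between the others, with log2 ratios over VZ progenitor-like cells of 2.49 for neuron-like and 1.62 for SVZ progenitor-like cells. An antisense gene, Gm26906, overlaps Meg3. Rian, a noncoding RNA that hosts small nucleolar RNAs, starts 32.2 kb downstream, at chr12:109603940-109661716 on the same strand. It was at 1.24 ± 1.33 in neuron-like and 1.27 ± 1.60 in SVZ progenitor-like cells, which did not differ beyond their spread, and at 0.59 ± 0.83 in VZ progenitor-like cells. Its log2 ratios over VZ progenitor-like cells, 1.08 for neuron-like and 1.12 for SVZ progenitor-like cells, lie just past 2-fold. The levels behind these ratios differed by less than the SD in any class. The ratio of neuron-like cells was 0.98 with clusters and levels from separate random splits of the values and 0.41 with the mean of log2(level + 1) over cells, and that of SVZ progenitor-like cells was 0.90 at clustering resolution 2 and 0.41 with log2(level + 1). Gm26945 overlaps Rian on the same strand.

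Dlk1 encodes a transmembrane protein related to the Notch ligands and ends 77.7 kb upstream of Meg3, at chr12:109452823-109463336. Its level was 1.89 ± 3.24 in neuron-like, 3.19 ± 4.08 in SVZ progenitor-like and 1.64 ± 2.53 in VZ progenitor-like cells. It was thus highest in the intermediate class, 1.95-fold over VZ progenitor-like cells (log2 ratio 0.96), but by less than the SD. Between neuron-like and VZ progenitor-like cells the log2 ratio was 0.21 and took either sign over the alternatives, between -0.24 and 0.33. Against VZ progenitor-like cells, SVZ progenitor-like cells had 2 of the 9 members at least 2-fold higher (Meg3 and Rian) and 1 lower (H19). Among the 13467 genes tested in that comparison 5.06% were higher and 12.4% lower, and among genes at a level of 1 or more 8.09% and 1.65%.

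**Figure D2:**
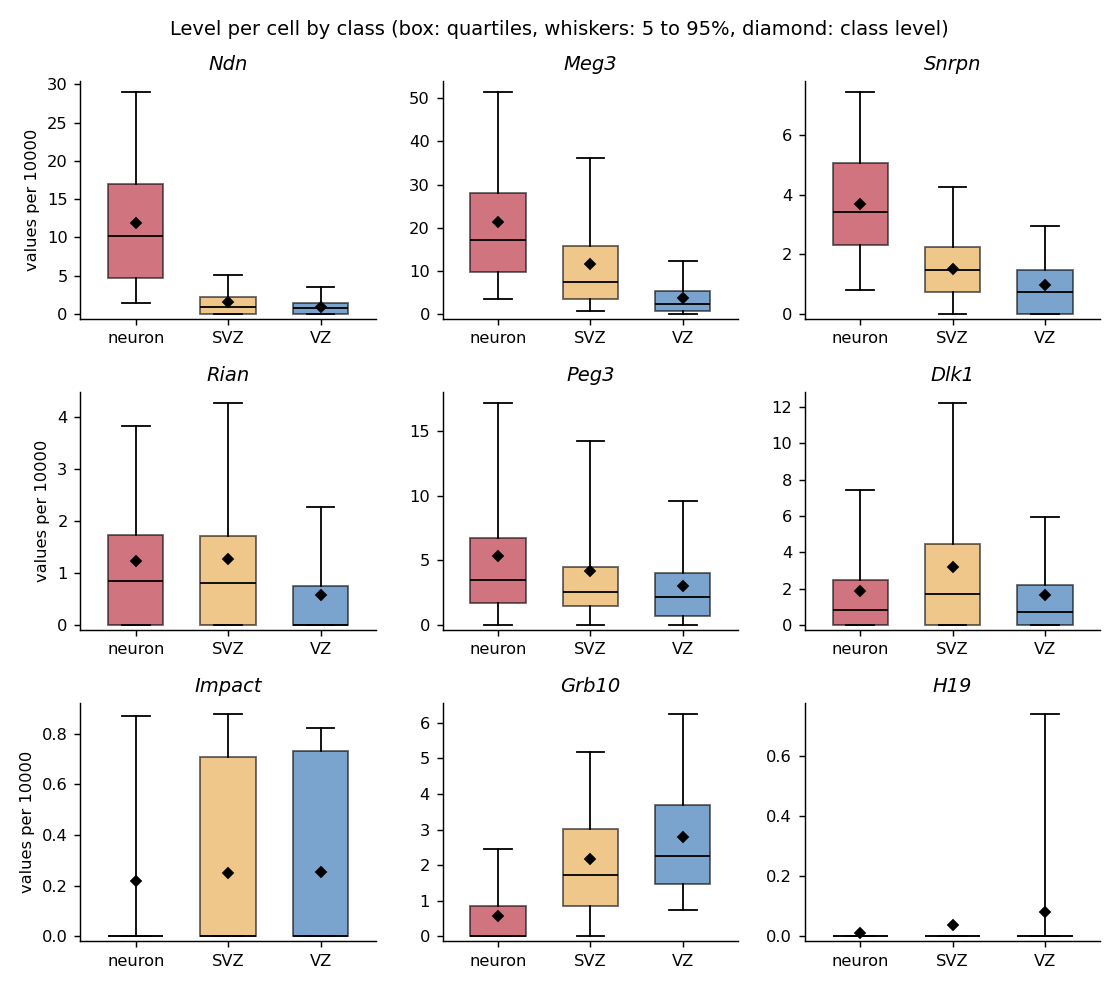
Level per cell (vertical axis, values per 10000) of the 9 members in neuron-like, SVZ progenitor-like and VZ progenitor-like cells. Boxes span the quartiles with the median, whiskers the middle 90% of cells, and diamonds mark the class level; Ndn, Meg3 and Snrpn are highest in the neuron-like class, Dlk1 in the SVZ class, and Grb10 and H19 in the VZ class.

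Grb10 encodes an adaptor that binds the insulin and IGF receptors and restrains growth; in the mouse its maternal copy is used in most tissues and its paternal copy in neurons. It lies at chr11:11930508-12038683 on the minus strand. Its level was 0.56 ± 0.94 in neuron-like, 2.18 ± 1.60 in SVZ progenitor-like and 2.78 ± 1.92 in VZ progenitor-like cells. Neuron-like cells were 5.0-fold lower than VZ progenitor-like cells (log2 ratio -2.32), whereas the progenitor classes differed by less than their SD (log2 ratio -0.35). Grb10 was detected in 37.9% of neuron-like cells (35.8% to 40.1%), against 95.6% of VZ progenitor-like cells (94.2% to 96.7%). When the values of each cell were reduced at random to 10000, for which all cells had enough, these shares were 33.3% and 90.8%. The values were already adjusted for depth, so this reduction cannot equalise the raw depth of cells, which is unknown.

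H19, at chr7:142575529-142578143 on the minus strand, was detected in 150 cells, of which 134 had a value of 1, 13 a value of 2 and 3 a higher value. Its level was 0.011 ± 0.094 in neuron-like, 0.038 ± 0.17 in SVZ progenitor-like and 0.081 ± 0.32 in VZ progenitor-like cells, and neuron-like cells were 7.21-fold lower than VZ progenitor-like cells (log2 ratio -2.85, on summed values of 28 and 117). Its levels differed by less than the SD in any class. It was found in 28 of 2019 neuron-like cells (1.39%, interval 0.92% to 2.0%), 30 of 653 SVZ progenitor-like cells (4.59%, 3.12% to 6.49%) and 92 of 1086 VZ progenitor-like cells (8.47%, 6.88% to 10.3%). After thinning, the shares were 1.24%, 3.83% and 6.08%. These intervals cover counting error over the cells of 1 library only, so they are no test between the classes. Hes5, which neurons lack, was detected in 25.4% of neuron-like cells, with median totals per cell of 12055 in neuron-like and 13511 in VZ progenitor-like cells. Hes5 is far more abundant, at a level of 12.2 in VZ progenitor-like cells, so its share sets no background for H19, and whether the H19 values of neuron-like cells come from free RNA was not tested. No H19 was found in 237 cells of the unnamed cluster, which allows a share of up to 1.27%, in 239 striatal-type neuron-like cells, which allows up to 1.26%, or in 147 cells of the neuron-like cluster 15, which allows up to 2.04%. These limits hold for cells with a value, not for cells that express the gene. Over the alternatives in processing, the log2 ratio of neuron-like over VZ progenitor-like cells lay between -3.40 and -0.07, the last with the mean of log2(level + 1) over cells, where H19 was no longer 2-fold lower.

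H19 is also made by cells of vessels and meninges. Their markers were highest in VZ progenitor-like cells, as H19 was, and so were those of several other cell types. The mural list, with 3 of its 10 genes in the matrix (Pdgfrb, Notch3 and Vtn), summed to 0.021 in neuron-like, 0.12 in SVZ progenitor-like and 0.46 in VZ progenitor-like cells. Over clusters it reached 0.010 to 0.051 in neuron-like, 0.052 to 0.24 in SVZ progenitor-like and 0.42 to 0.94 in VZ progenitor-like cells. The endothelial list, with 4 of 11 genes, was at 0.042, 0.099 and 0.23 in the same order, and the meningeal fibroblast list, with 6 of 12, at 0.040, 0.096 and 0.25. Some of these genes are also expressed by neural progenitors, and no cluster was named for any of these types. The erythroid list, with 8 of 9 genes, was at 2.07 in neuron-like, 2.05 in SVZ progenitor-like and 1.71 in VZ progenitor-like cells. The choroid plexus list, with 1 of 7 genes (Otx2), was at 0.061, 0.29 and 1.12 in that order. The oligodendrocyte precursor list, with 6 of 6, was at 0.39, 0.74 and 0.86. The microglia list, with 2 of 10, was at 0.047, 0.059 and 0.13, and the neural crest list, with 3 of 8, at 0.11, 0.10 and 0.11. Across the 3995 cells, which share 1 library, the correlation with H19 was 0.14 for the mural, 0.097 for the endothelial and 0.10 for the meningeal list, all weak. Their part in the H19 difference was not tested.

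Impact encodes a regulator of the cellular response to amino acid starvation and lies on chromosome 18. Its level was 0.22 ± 0.44 in neuron-like, 0.25 ± 0.48 in SVZ progenitor-like and 0.25 ± 0.44 in VZ progenitor-like cells, with a log2 ratio of -0.23 for neuron-like over VZ progenitor-like cells. These levels did not differ beyond the spread of cells. It was detected in 22.3%, 25.1% and 29.0% of cells in that order.

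The cells were also ranked by the summed level of 20 neuron markers, from low to high, into 10 bins of 399 or 400 cells. This ranking is across cells of 1 library and is a description. Grb10 was at 2.96 in bin 1, still at 2.21 in bin 4, where SVZ progenitor-like cells made up 77.4%, and at 0.71 in bin 6. Ndn was at 0.60 in bin 1, 2.27 in bin 4, 3.96 in bin 5, where neuron-like cells made up 46.3%, and 16.9 in bin 10. Meg3 was at 2.55 in bin 1, 12.3 in bin 4, 14.5 in bin 5 and 30.9 in bin 10. Both were already higher in bin 4 than in bin 1.

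Dlk1 and Peg3 did not follow a single direction along this ranking. Dlk1 was at 1.39 in bin 1, peaked at 3.53 in bin 4, and was at 1.30 in bin 7 and 2.18 in bin 10. Peg3 was at 2.45 in bin 1, 5.37 in bin 4, 3.35 in bin 6 and 6.45 in bin 10. Rian was at 0.41 in bin 1 and between 0.99 and 1.36 from bin 3 on. H19 was at 0.11 in bin 1 and at 0.0020 in bin 10.

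**Figure D3:**
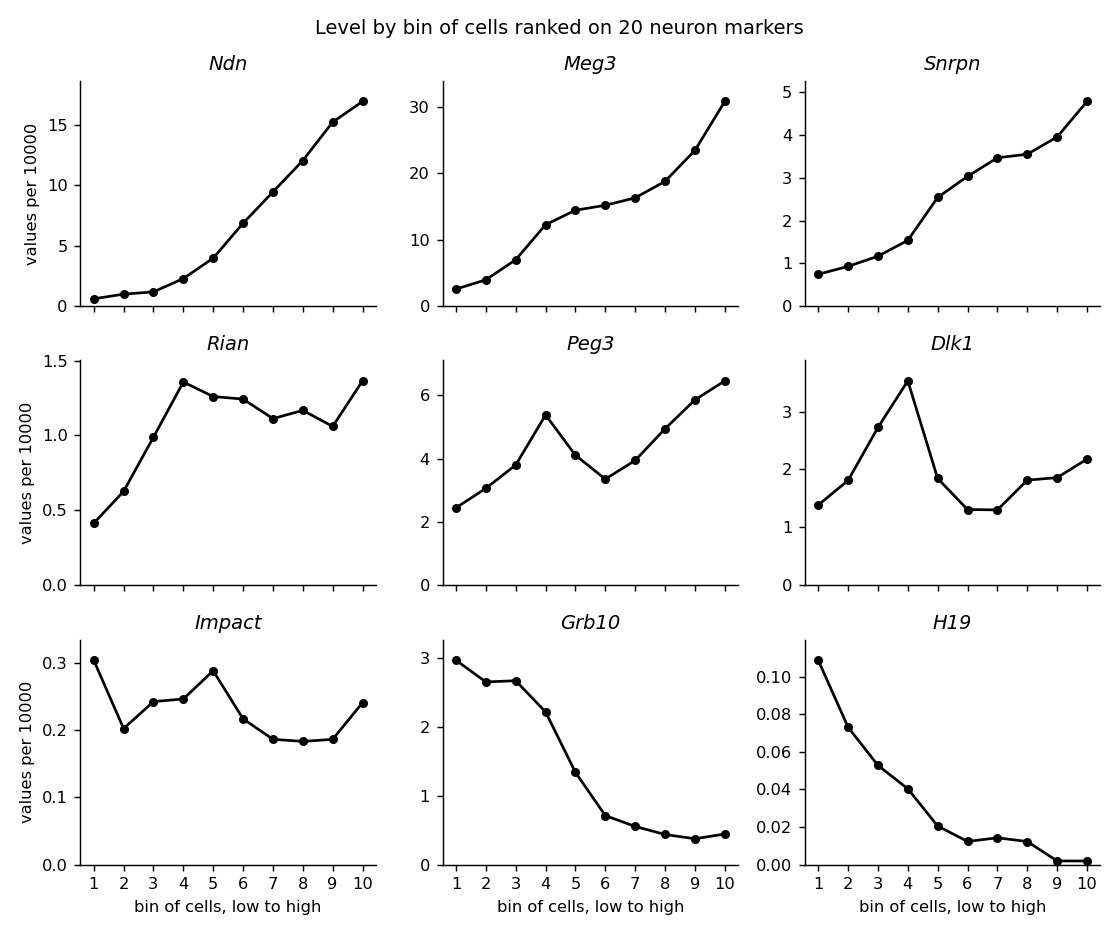
Level of each member (vertical axis, values per 10000) in 10 bins of the 3995 cells ranked by the summed level of 20 neuron markers (horizontal axis, low to high). Ndn, Meg3 and Snrpn are highest in bin 10, Dlk1 peaks in bin 4 at 3.53, and Grb10 and H19 are highest in bin 1.

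Among neuron-like clusters of at least 50 cells, 6 of the 8 members tested differed at least 2-fold between the highest and the lowest cluster (Dlk1, Peg3, Ndn, Grb10, Meg3 and Impact). Of all 12985 genes tested, 48.6% passed the same bound, and of genes at a level of 1 or more 13.8%. Cluster 12, a group of 351 cells led by Prox1os, Tgfb3 and St18 in which 3 neuron markers were elevated, had the lowest Ndn at 3.51 ± 2.94, the lowest Meg3 at 11.8 ± 9.99, the lowest Dlk1 at 1.05 ± 1.79, and the highest Grb10 at 1.26 ± 1.17. These are the values that lie nearest to those of SVZ progenitor-like cells for Meg3 and Grb10.

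Cluster 17 held 97 cells led by the homeobox genes Hmx2 and Hmx3, which are known from the developing hypothalamus, and had no named subtype. It had the highest Dlk1 and Peg3 of all 17 clusters. Dlk1 was at 8.37 ± 8.34 in cluster 17, against 1.56 over the other neuron-like clusters (log2 ratio 2.43), a difference within the SD of cluster 17. Peg3 was at 20.9 ± 9.76, against 4.51 (log2 ratio 2.21), and every one of the 97 cells had a Peg3 value. For Peg3 the median cell of cluster 17, at 19.9, was above the level that 95% of all neuron-like cells did not exceed. No other member was at least 2-fold different there, and 6.99% of the 13063 genes tested were at least 2-fold higher and 9.0% lower. Among genes at a level of 1 or more over all cells, such as Dlk1 and Peg3, 1.22% were higher and 2.45% lower. Leaving cluster 17 out of the neuron-like class took the Dlk1 log2 ratio over VZ progenitor-like cells to -0.08.

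Other imprinted genes were also compared in the same cluster, which was chosen after its member values were seen. Of 43 tested, 8 were at least 2-fold higher than in the other neuron-like clusters and 3 at least 2-fold lower. Among all 13063 genes tested, 6.99% were higher and 9.0% lower, and among those at a level of 1 or more 1.22% and 2.45%. Of the 8 higher genes, Zim1 and Usp29 are neighbours of Peg3, with log2 ratios of 4.77 and 1.69. Rtl1, in the domain of Dlk1, had 3.02. The others were Calcr at 2.90, Zdbf2 at 2.35, Magel2 at 1.61, Peg10 at 1.21 and Peg12 at 1.19. Zim1, Rtl1 and Calcr rest on summed values of 58, 18 and 17 in cluster 17. Begain, Sfmbt2 and Qpct were lower, on summed values of 1, 1 and 0, and no ratio is given for them.

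Cluster 11, with 237 cells led by Asic4, Chl1 and Robo3, was one of the 2 clusters named cholinergic and Lhx8-type. It had the highest Ndn of all clusters at 21.9 ± 7.80, against 10.6 over the other neuron-like clusters (log2 ratio 1.05), and all of its cells had an Ndn value. Of the 13063 genes tested, 3.69% were at least 2-fold higher there and 7.32% lower. Among genes at a level of 1 or more, 0.798% were higher and 2.13% lower. Meg3 was also highest in this cluster at 31.2 ± 23.5, with a log2 ratio of 0.65, which is less than 2-fold and less than the SD.

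The series title sets GABAergic against cholinergic lineages. In the cholinergic and Lhx8-type cells (clusters 11 and 13, 654 cells), Ndn was at 15.2 ± 8.66, against 10.6 ± 7.58 in interneuron-type cells (cluster 14, led by Sst, 491 cells). Within the first, cluster 11 was at 21.9 and cluster 13, with 417 of the 654 cells, at 11.4 ± 6.62. Grb10 was at 0.27 ± 0.59, against 0.48 ± 0.73, with a log2 ratio of -0.84. None of the 8 members tested differed at least 2-fold between them, and each difference was within the SD. Of 11634 genes, 4.22% were higher and 2.17% lower by that bound. Cluster 13 had Lhx8 at 12.1, against 3.3 in cluster 14, but Lhx6 was alike, at 3.41 and 3.39. Isl1 was at 0.168 in cluster 13, lower than in cluster 11. Whether the cells of cluster 13 are cholinergic was not tested. The unnamed cluster 9, with Lhx8 at 10.8 and Ndn at 7.1 ± 4.77, was part of neither type. Against striatal projection-type cells (cluster 16, led by Ebf1, 239 cells), cholinergic and Lhx8-type cells had Peg3 at 3.53 ± 2.58, against 8.82 ± 6.48 (log2 ratio -1.32), and Grb10 was at 0.27 ± 0.59, against 0.59 ± 1.31 (log2 ratio -1.16). By that bound 5.42% of 11287 genes were lower and 4.83% higher. Interneuron-type cells also had less Peg3 than the striatal type, 3.86 ± 3.34 against 8.82 ± 6.48 (log2 ratio -1.19), in a comparison where 7.11% of 10823 genes were lower and 4.85% higher.

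**Figure D4:**
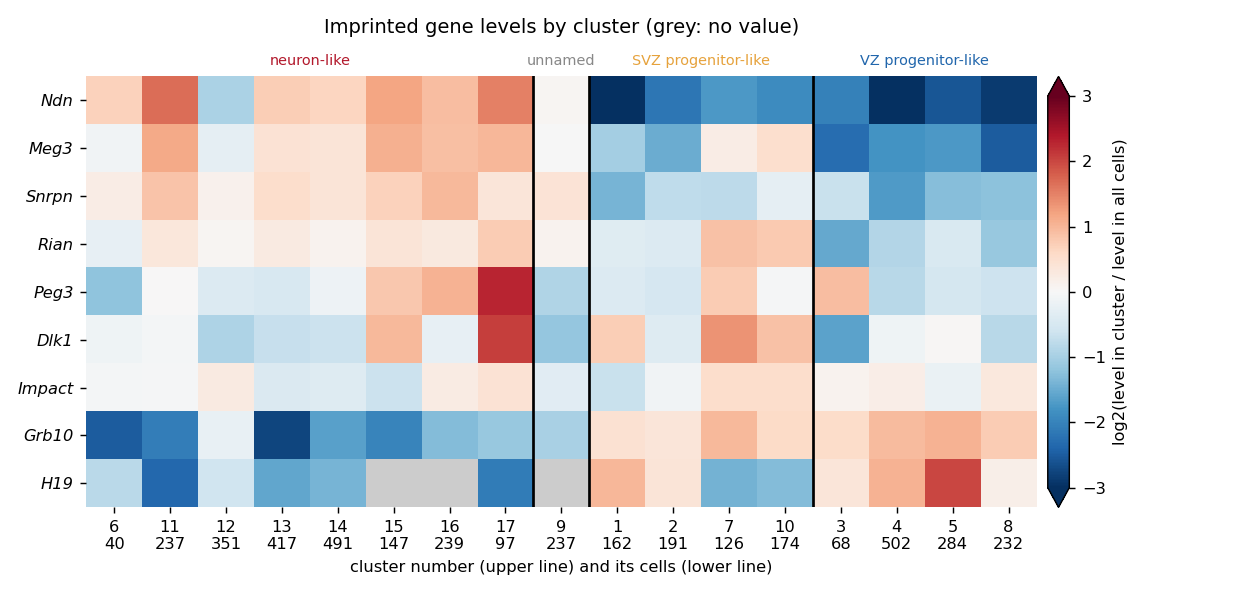
Log2 ratio of the level of each member (rows) in each of the 17 clusters (columns, with cell numbers) to its level in all cells, with the classes separated by lines; grey marks clusters where no H19 value was found. Peg3 and Dlk1 are highest in cluster 17, Ndn in cluster 11, and H19 in cluster 5.

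Within the VZ progenitor-like class, 6 of the 9 members differed at least 2-fold between the 4 clusters, against 29.9% of 12557 genes tested and 8.14% of those at a level of 1 or more. Peg3 was at 8.14 ± 5.97 in cluster 3, a group of 68 cells led by Igfbp5, against 2.41 in cluster 4. The same cluster had the lowest Dlk1, 0.65 ± 1.14, against 2.02 ± 2.99 in cluster 5. H19 was highest in cluster 5, whose cells were led by Ung and Cdc6, genes of DNA replication, with a level of 0.14 and a share of 10.6% (7.24% to 14.7%), against a level of 0.040 and a share of 5.17% (2.70% to 8.86%) in the mitotic cluster 8. Cluster 4, whose leading genes were mostly histone genes beside Prc1 and Aurkb, had a level of 0.072 and a share of 9.36% (6.96% to 12.3%). Cluster 3 had a level of 0.045 and a share of 4.41% (0.92% to 12.4%). The summed level of 16 S phase genes was 34.8, 29.1, 42.0 and 29.0 in clusters 3, 4, 5 and 8 in that order, and that of 16 G2/M genes was 26.8, 68.2, 12.9 and 51.1. Their part was not tested. The division of the VZ class into clusters was not stable, and over the alternatives between 0 and 6 members passed the bound.

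Among the 4 SVZ progenitor-like clusters, 8 of the 9 members differed at least 2-fold, against 37.6% of 10798 genes and 17.7% of those at a level of 1 or more. Cluster 7, with 126 cells led by Gsx1 and Helt, had the highest Dlk1 of the class at 5.03 ± 5.57, the highest Rian at 1.93 ± 1.90 and the highest Peg3 at 7.28 ± 9.48. Its Hes5 level was 9.69, against 3.55 over the class and 9.53 and 8.85 in the VZ progenitor-like clusters 5 and 8. Cluster 10, with 174 cells led by genes that include Slit1 and the Notch ligand gene Dll3, had the highest Meg3 of the class at 20.1. Cluster 2, whose leading genes were mitotic, had the lowest of the class for Meg3 at 5.08, Dlk1 at 1.51 and Rian at 0.79. In clusters 1, 2, 7 and 10 the summed level of the G2/M genes was 53.4, 71.0, 6.12 and 1.91. That of the S phase genes was 39.1, 14.4, 13.9 and 4.98 in the same order. Their part was not tested.

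The genes whose values most resembled those of each member across the 3995 cells were found by Pearson correlation of log values among 10867 genes. Cells share the library and differ in class, so these values are descriptions. Ndn resembled Tmsb10 (r = 0.78), Rtn1 (0.77) and Aplp1 (0.75). Snrpn resembled Rtn1 (0.65), Tmsb10 (0.64) and Stmn2 (0.64), and Meg3 resembled Rtn1 (0.64), Kif5c (0.63) and Map2 (0.63). Grb10 resembled Prdx1, Ccnd1 and Vim (0.59 each). For the remaining members the values were lower: at most 0.16 for H19 (Uhrf1, Gmnn and Nes) and 0.083 for Impact (Pcdh10, Ccnd2 and Osbpl1a).

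Some of the nearest genes lie in the same domain as the member. Meg3 was the gene most like Rian (r = 0.45), followed by Dlk1 (0.26) and Gm37899 (0.24). Meg3 was also the gene most like Dlk1 (0.32), followed by Rian and Peg10 (0.26 each). Neither Rian nor Dlk1 was among the 3 genes most like Meg3, and Ndn and Snrpn were not among each other's. The gene most like Peg3 was its neighbour Usp29 (0.43), followed by Zdbf2 (0.38), which is also imprinted, and Zfhx3 (0.35). Overlap of transcripts can add to such values, and its part was not tested.

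Within single classes these correlations leave out the difference between classes, but they still mix the clusters of a class. Between Meg3 and Rian r was 0.41 in neuron-like, 0.49 in SVZ progenitor-like and 0.42 in VZ progenitor-like cells. Between Meg3 and Dlk1 it was 0.37, 0.46 and 0.49 in the same order, and between Peg3 and Usp29 0.45, 0.42 and 0.24. Ndn and Snrpn, which lie 2206 kb apart, had 0.28, 0.18 and 0.09. Peg3 and Dlk1, which are on different chromosomes, had 0.28, 0.05 and -0.22, so that VZ progenitor-like cells with more Peg3 tended to have less Dlk1. Cluster 3 had the highest Peg3 (8.14) and the lowest Dlk1 (0.65) of the VZ class. Cluster 17 had the highest of both (20.9 and 8.37) among neuron-like clusters. The part of such cluster differences in these correlations was not tested. In VZ progenitor-like cells 40.6% had both Meg3 and Rian, where the product of the separate shares is 36.9%.

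The 3 genes of the domain did not keep a fixed ratio. Meg3 per Rian was between 10.8 and 23.3 in neuron-like clusters, between 6.43 and 11.1 in SVZ progenitor-like clusters and between 5.36 and 8.19 in VZ progenitor-like clusters. Meg3 per Dlk1 was between 3.42 and 16.4 in neuron-like clusters, with the lowest in cluster 17, and between 2.15 and 4.52 in VZ progenitor-like clusters. These ratios are compared between clusters only, and are not read as the ratio of molecules of the 2 genes.

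**Figure D5:**
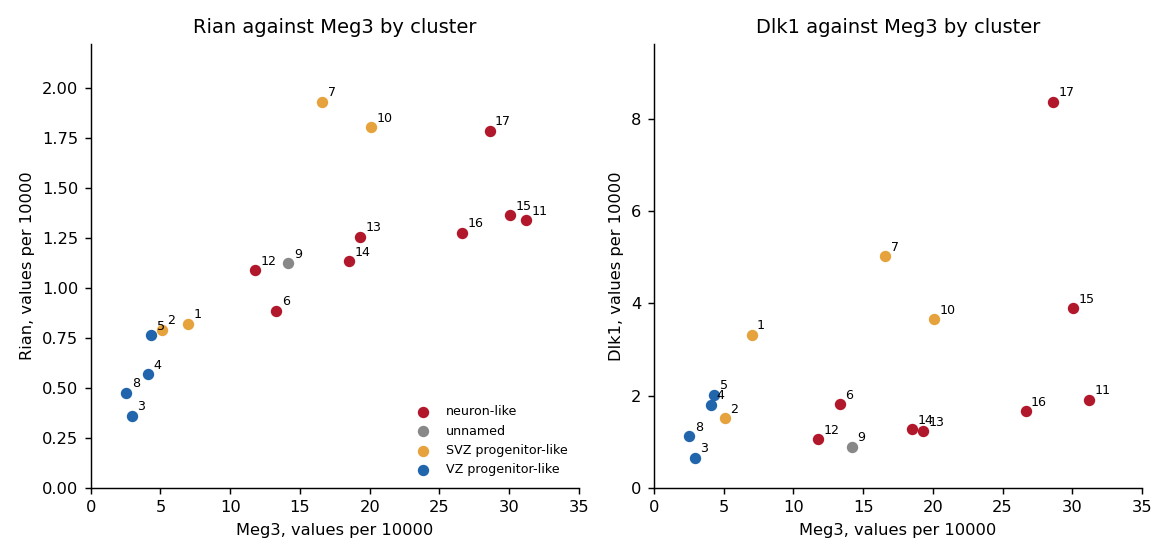
Rian (left) and Dlk1 (right) against Meg3, all as values per 10000, with 1 numbered point per cluster coloured by class. Meg3 ranges more widely than Rian, and cluster 17 stands apart with a Dlk1 level of 8.37.

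Of 61 other imprinted genes, 52 were in the matrix and 45 had enough values to compare neuron-like with VZ progenitor-like cells. Of these, 14 were at least 2-fold higher and 8 at least 2-fold lower, with a median log2 ratio of 0.37. Over all genes tested the shares were 17.1% and 23.8%. Magel2, a MAGE family gene next to Ndn, had the highest ratio of the list (log2 3.04), but a level of only 0.54 in neuron-like and 0.066 in VZ progenitor-like cells. The other genes that were higher were Nap1l5 (2.07), Calcr (1.97), Inpp5f (1.94), Sfmbt2 (1.92), Usp29 (1.81), Zim1 (1.76), Blcap (1.71), Peg13 (1.69), Nnat (1.53), H13 (1.40), Cdkn1c (1.36), Snhg14 (1.22) and Ppp1r9a (1.06), all as log2 ratios. The lower ones were Atp10a (-4.67), Dio3 (-3.84), Peg12 (-2.70), Plagl1 (-2.21), Gab1 (-1.78), Asb4 (-1.64), Herc3 (-1.26) and Cd81 (-1.07). Several of these ratios rest on few cells. Of 2019 neuron-like cells, Atp10a had a value in 5, Dio3 in 10, Calcr in 32 and Zim1 in 65. Zim1 and Calcr were also among the genes higher in cluster 17. With cluster 17 left out of the neuron-like class, 13 genes were at least 2-fold higher in place of 14. Dio3, which inactivates thyroid hormone and lies in the domain of Dlk1, was at 0.0048 in neuron-like and 0.069 in VZ progenitor-like cells, opposite in direction to Meg3.

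The 6 other imprinted genes with the highest level over all cells were Nnat, Gnas, Cdkn1c, Ube3a, Kcnq1ot1 and Mest. Nnat, which encodes the membrane protein neuronatin, was at 58.9 ± 29.5 in neuron-like, 31.4 ± 17.3 in SVZ progenitor-like and 20.4 ± 13.7 in VZ progenitor-like cells. Cdkn1c, an inhibitor of cyclin-dependent kinases that acts at cell cycle exit, was highest in the intermediate class, at 5.70 ± 6.50, 17.6 ± 24.7 and 2.22 ± 4.22 in that order. Its excess in the intermediate class was within the SD of that class. Mest was lowest there, at 3.15 ± 2.68, 1.17 ± 2.0 and 3.15 ± 3.78. Gnas was at 12.8, 9.88 and 8.55, Ube3a at 3.75, 3.11 and 1.98, and Kcnq1ot1 at 2.96, 4.11 and 2.57, each with differences within 2-fold.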

How the data were processed

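RNA was measured in 1 pooled library of MGE cells. The submitters' processing notes name Cell Ranger 3.0.2, bcl2fastq and the build GRCm38. The deposited matrix holds whole numbers that the authors adjusted for depth (step not given in the sources used here), so its unit was taken as a score and no count model was used. The share of values equal to 1 was under 10% in 214 cells. No mitochondrial gene has a row. The deposited barcode list was used only to count barcodes.

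Cells with at least 1000 genes were kept (all), and doublets were called with Scrublet in scanpy 1.11.5 at an expected rate of 5%. It called 6 cells (0.150%), a number that says little about doublets in adjusted values. Clustering used log values after scaling each cell to 10000. Of the 2000 genes of highest variability, 26 imprinted ones were left out and 1974 used, with 30 components and 15 neighbours. Leiden at resolution 1 (igraph 0.11.9) gave 17 clusters. A cluster took a class name where 3 or more markers exceeded the remaining cells 1.5 times and reached 10% of its cells; 78 of 118 class markers had a row. The rebuilt names may differ from those of the study.

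A log2 ratio is that of 2 class levels, for genes with at least 30 summed values, and 2-fold is a bound of size, not a test. Shares carry exact (Clopper-Pearson) 95% intervals, and a share of 0 the limit set by 3 counts. Whether the counting used strand is not stated, so overlapping and antisense genes cannot be told apart. The ratio step was checked on simulated data. Named were all members, the other imprinted genes past 2-fold and the 6 with the highest level, and the 3 genes most like each member among those detected in at least 5% of cells; genes in cluster 17, Ndn and Meg3 in cluster 11, and the ratios within the domain were chosen after their values were seen. The members and lists were chosen with earlier results of these data known. Alternatives were 11 planned changes of clustering, scaling, filters and class definition, and 3 chosen after seeing the data. Promoter windows came from RefSeq (GRCm38.p6), positions of genes from GENCODE on GRCm38.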

Additional observations from a re-analysis of the deposited data

How the results depend on the processing

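Over 14 alternatives, the 117 values of members past 2-fold kept their sign, and 106 stayed past 2-fold. The neuron-like over VZ progenitor-like counts moved by over 1.5 times only with the mean of log2(level + 1) over cells, a scale that compresses low levels: 1 member lower (Grb10) in place of 2, H19 being lost at -0.07, and 2 higher and 0 lower of the other imprinted genes in place of 14 and 8. For SVZ over VZ progenitor-like cells, the members at least 2-fold lower went to 0 in place of 1 (H19) at resolution 0.5, at resolution 2, with 4000 variable genes, with clusters and levels from separate random splits of the values, with doublet calls kept, and with log2(level + 1). The members at least 2-fold higher numbered 4 without rescaling and with the cells that skip the value 1 left out, 6 with separate splits and 1 with log2(level + 1), in place of 2. Rian fell below 2-fold, for neuron-like over VZ progenitor-like cells, with separate splits (0.98) and log2(level + 1) (0.41), and for SVZ over VZ progenitor-like cells at resolution 2 (0.90) and with log2(level + 1) (0.41). The median log2 range over neuron-like clusters was 1.97, and 1.09 at resolution 0.5, 1.2 without the cells that skip the value 1, and 1.07 without cluster 12. Over VZ progenitor-like clusters the median was 1.09 with 6 members past 2-fold. It was 0.50 with 4000 variable genes, 0.49 with 1 member with separate splits, and 0.38 with 0 members with doublet calls kept, and resolution 2 gave 2 members. Resolution 0.5 left a single VZ cluster and so no value. The cause of these moves was not tested.

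No paired analysis was possible because there is 1 library and no map from cells to sample barcodes. Raw depth per cell is unknown, and H19 and Impact, with most values at 0 or 1, are the members it limits most.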
